A study of Rattus norvegicus with 12 samples.

Results

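Solute carrier (Slc) genes were examined in the lungs of normal and diabetic rats. A gene was included when the annotation of the Affymetrix RAE 230A array gave it, as the single gene of a probe set, a symbol that starts with Slc and a digit. Of 10411 genes named in this way, 228 had such a symbol, and 6 of them (Slc2a1, Slc16a1, Slc7a10, Slc28a3, Slc34a2 and Slc38a2) were left out, so that 222 genes remained. Each gene was represented by 1 probe set, the one with the highest mean log2 signal over the 12 arrays, and 40 of the genes had more than 1 to choose from. The 5 normal rats had been injected with buffer and the 7 diabetic rats with streptozotocin, a toxin that kills pancreatic beta cells, both at 8 weeks of age. All were male Wistar rats, were 12 weeks old and had been fasted overnight when the lungs were removed, so that diabetes had lasted 4 weeks. Total RNA of each animal was hybridized to 1 array without pooling, and the values were MAS 5.0 signals, an intensity on a linear scale.

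Solute carriers are membrane proteins that move ions, nutrients, metals and metabolites across the plasma membrane and the membranes of organelles, either down a gradient or coupled to the movement of another solute. In lung they serve fluid and acid-base transport by the epithelium, supply choline and fatty acids for surfactant lipid, take up peptides and amines from the airspace, and control the zinc and iron that reach the cytosol. The families are numbered by sequence relation, and the genes were sorted here by the main solute of their family, except for single members of Slc5, Slc13, Slc17 and Slc66 that carry another solute. The symbol rule also took in Slc4a1ap and Slc7a6os, which are not carriers, and Slc49a4 and Slc66a2 were not assigned to a class. Counts over all carrier genes include these genes.

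Zinc carriers included the gene with the smallest p of all carriers tested (Slc39a4) and the one with the largest difference (Slc39a8). The Slc39 (ZIP) proteins move zinc toward the cytosol, and the Slc30 (ZnT) proteins move it out. Slc30a1, the zinc exporter of the plasma membrane, is a textbook target of the metal-responsive transcription factor MTF1, which binds the metal response element. The stretches of 300 bases around the transcription start of Slc30a1 and of a pair of zinc carriers with differences in opposite directions are given below to show where the letters of this element occur. They were taken from RefSeq (assembly GRCr8), run from 250 bases before to 50 bases after the start, and are written 5′ to 3′ with every match to TGCACNC or TGCGCNC, on either strand, in capitals.
Slc30a1, chr13:106021769-106022068, plus strand: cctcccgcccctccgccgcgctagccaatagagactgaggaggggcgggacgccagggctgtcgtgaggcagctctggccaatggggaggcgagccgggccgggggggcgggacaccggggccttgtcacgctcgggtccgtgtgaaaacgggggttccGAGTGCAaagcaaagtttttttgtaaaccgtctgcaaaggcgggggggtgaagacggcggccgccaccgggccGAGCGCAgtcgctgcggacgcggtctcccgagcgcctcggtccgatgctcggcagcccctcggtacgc
Slc39a7, chr20:4824809-4825108, plus strand: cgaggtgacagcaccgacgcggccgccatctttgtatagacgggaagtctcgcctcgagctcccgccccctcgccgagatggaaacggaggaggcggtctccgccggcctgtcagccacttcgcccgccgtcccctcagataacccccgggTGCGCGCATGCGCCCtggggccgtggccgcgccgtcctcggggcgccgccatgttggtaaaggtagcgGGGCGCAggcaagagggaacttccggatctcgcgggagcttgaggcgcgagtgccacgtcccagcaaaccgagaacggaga
Slc39a8, chr2:226929941-226930240, plus strand: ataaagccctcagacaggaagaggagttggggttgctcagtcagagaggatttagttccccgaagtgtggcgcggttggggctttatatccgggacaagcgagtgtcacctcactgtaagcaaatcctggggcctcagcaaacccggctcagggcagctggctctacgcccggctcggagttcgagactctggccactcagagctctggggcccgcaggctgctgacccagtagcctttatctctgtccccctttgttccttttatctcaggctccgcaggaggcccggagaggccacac

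The letters matched at positions -91 and -18 from the start in Slc30a1, at -99, -98, -91 and -31 in Slc39a7, where the first 3 matches touch or overlap, and nowhere in the stretch of Slc39a8. A match was found in 8110 of 33469 rat promoters of the same length (24.2%), in 66 of the 188 carrier genes with an entry (35.1%) and in 10 of the 20 metal carriers with an entry. No promoter entry was found by gene identifier for Slc39a4, so that its promoter was not searched. A match describes letters only, and the printed pair was picked for its opposite directions. Tested metal carriers with a match and a higher diabetic mean were Slc30a1 (log2 difference 0.19), Slc31a2 (0.18), Slc39a1 (0.13) and Slc30a5 (0.04). Those with a match and a lower mean were Slc39a11 (-0.34), Slc39a7 (-0.21), Slc39a13 (-0.09) and Slc30a4 (-0.01). Whether a match goes with a difference was not tested.

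Most genes classed under mitochondrial carriers, metals and nucleotide sugars were above the level of the signal filter. Most of those classed under phosphate, organic ions, neurotransmitters, bicarbonate, vitamins and carboxylates were below it. This filter took away the dimmest 40% of probe sets by mean log2 signal over all arrays, which lay under 170.0. The filter left 127 of the 222 carrier genes (57.2%), of which 105 were above 170.0 on all 12 arrays. A further 43 genes were above this signal on some arrays, and 74 were below it on every array. Signals of different probe sets depend on the probes and cannot be set against each other as amounts of RNA, so the classes are described by how many of their genes passed. The 6 left-out genes are in none of these counts. Among them are Slc34a2, Slc2a1 and Slc16a1, whose families were otherwise counted under phosphate, sugars and carboxylates. The phosphate carrier Slc25a3 was counted with the mitochondrial carriers.

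All 13 genes of the nucleotide sugar and acetyl-CoA class, which was set by family and not by the solute of each gene, passed the filter. So did 21 of 25 metal ion carriers (84.0%) and 21 of 30 mitochondrial carriers (70.0%). The share was lower for carriers of protons, bicarbonate and chloride (9 of 25), of organic ions and bile acids (6 of 17, 35.3%), of neurotransmitters, amines and osmolytes (8 of 21, 38.1%) and of phosphate (1 of 6, 16.7%, a class that also holds the sulfate carrier Slc13a1). It was also lower for carriers of vitamins (3 of 8, 37.5%) and of carboxylates (4 of 9, 44.4%). Amino acid and peptide carriers stood between, with 16 of 28 (57.1%). The carriers of sugars and polyols had 7 of 13, and all of Slc2a3, Slc2a4 (the insulin-responsive glucose carrier) and Slc2a5 (a fructose carrier) were below the filter.

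In normal lung the mean signal was above 1000 for 17 carrier genes. Of these, 6 were mitochondrial, with Slc25a5 (an ADP/ATP carrier of the inner membrane) at 5355 ± 199 (SD, n = 5), Slc25a3 (the phosphate carrier) at 4987 ± 365 (SD, n = 5) and Slc25a4 (another ADP/ATP carrier) at 2939 ± 290 (SD, n = 5). The plasma membrane carriers in this group included Slc29a1, which equilibrates nucleosides such as adenosine, at 3262 ± 112 (SD, n = 5), and Slc12a2, the sodium, potassium and chloride cotransporter of secretory epithelium, at 2297 ± 278 (SD, n = 5). Slc3a2, the heavy chain that partners many amino acid exchangers, had a signal of 2279 ± 203 (SD, n = 5). Slc44a2, a choline carrier, had 2185 ± 150 (SD, n = 5) and Slc6a6, the taurine carrier, 1567 ± 249 (SD, n = 5). Slc20a1, a sodium-coupled phosphate carrier, was the 1 gene of the phosphate class that passed, with 1209 ± 97.9 (SD, n = 5), while its relative Slc20a2 was below the filter at 131.8 ± 16.3 (SD, n = 5).

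**Figure D1:**
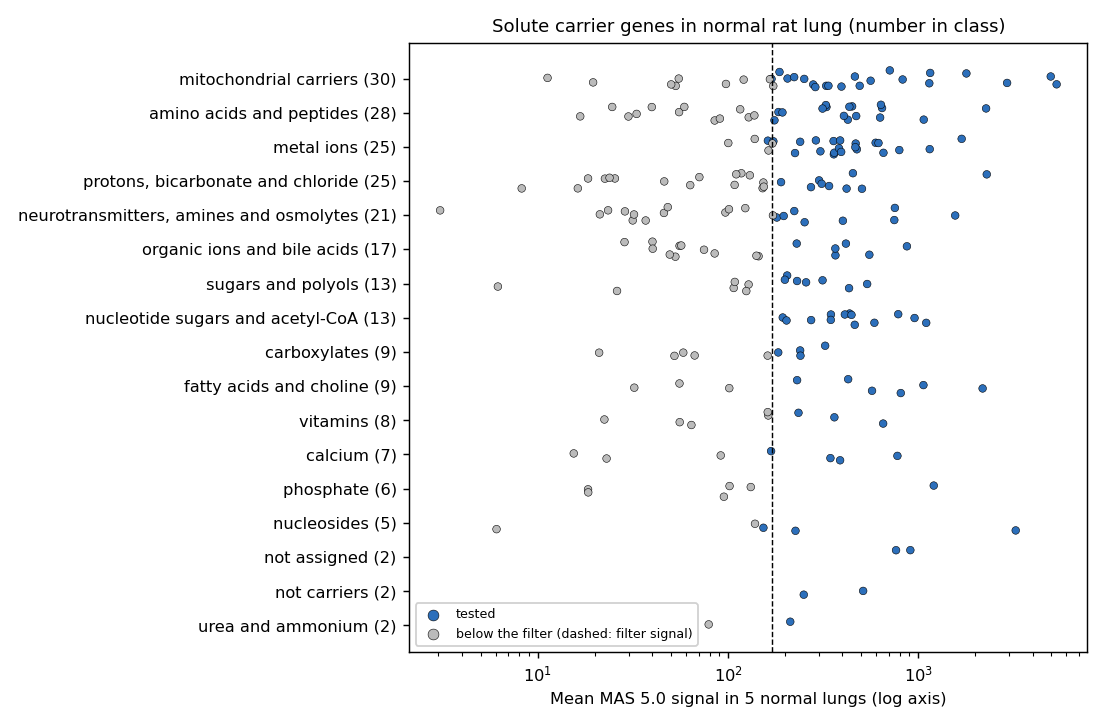
Mean MAS 5.0 signal in 5 normal lungs (log axis) of each of the 222 solute carrier genes, 1 point per gene, sorted by substrate class with the number of genes in parentheses; blue points were tested and grey points were below the filter, which is drawn as a dashed line at 170.0. All 13 genes of the nucleotide sugar and acetyl-CoA class are blue, whereas 16 of the 25 carriers of protons, bicarbonate and chloride are grey.

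No carrier gene differed between diabetic and normal lung at an adjusted p of 0.05 (limma on log2 signals, two-sided, Benjamini-Hochberg adjustment over all 9520 probe sets tested). The share of all tested probe sets that passed was 0.168% (16 probe sets). The smallest adjusted p of a carrier was 0.0725 (limma), for Slc39a4. At an unadjusted p under 0.05, 7 of the 127 genes (5.51%) had a higher mean in diabetic lung, beside 7.75% of all tested probe sets, and 11 (8.66%) had a lower mean, beside 8.68%. Among the 7, Slc28a2 had a normal mean under the filter signal (153.6, and 234.5 in diabetic lung). The groups did not overlap for 3 genes (2.36%, beside 2.04% of all tested probe sets). All 3 were lower in diabetic lung, beside 1.11% of all tested probe sets, and 0 were higher, beside 0.924%.

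The differences were small. The log2 difference, diabetic minus normal, was above 0 in 58 genes and below 0 in 69 (54.3%, beside 52.8% of all tested probe sets), with a median of -0.02 for the carriers and -0.01 for all tested probe sets. It was smaller than 0.25 in size for 85.0% of the carriers and 84.3% of all tested probe sets. The 18 genes at an unadjusted p under 0.05 are described below by what they carry. The shares of all tested probe sets, 7.75% higher and 8.68% lower, are the background for their counts by class. When 1 animal at a time was left out, Slc28a2, Slc45a3, Slc16a3, Slc11a2, Slc7a6 and Slc12a4 lost an unadjusted p under 0.05 in at least 1 fit, and the other 12 did not. Of those 12, Slc39a4, Slc25a4, Slc4a4 and Slc39a11 lost it with the GAPDH ratio as a covariate, Slc15a2 with array weights and Slc39a7 with the replicate number as a block.

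**Figure D2:**
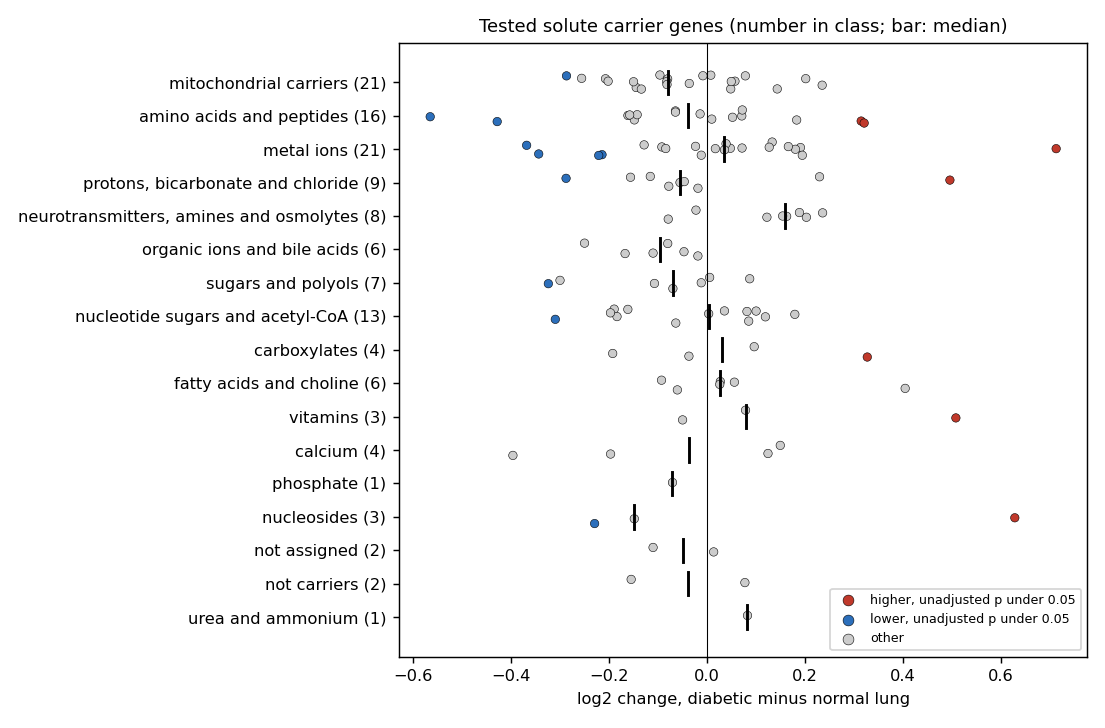
The log2 difference, diabetic (n = 7) minus normal (n = 5) lung, of the 127 tested solute carrier genes, 1 point per gene, by substrate class with the number tested in parentheses; vertical bars are class medians, and red and blue points are genes at an unadjusted p under 0.05 from limma. The medians lie between -0.15 (nucleosides) and 0.16 (neurotransmitters, amines and osmolytes), and the coloured points are spread over 9 classes.

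Some features of the arrays moved with the groups. The 3′ to 5′ ratio of the GAPDH probe sets is a measure of RNA integrity. It averaged 1.32 (SD 0.0778, n = 5) in the normal animals and 1.15 (SD 0.0710, n = 7) in the diabetic animals, with p = 0.00505 by a two-sided exact permutation test. The beta-actin ratio was 2.06 (SD 0.437, n = 5) and 2.08 (SD 0.372, n = 7), with p = 0.920 by the same exact permutation test. In diabetic animal 6 the GAPDH ratio was 1.30, within the range of the normal animals, and the beta-actin ratio of that animal was 2.85, the highest of the 12. Of the markers of whole lung, all 6 measured genes of type II cells and all 5 of endothelium were tested, and none differed at an unadjusted p under 0.05. Of 7 fibroblast markers, 5 had a lower and 1 a higher diabetic mean at that threshold, beside 8.68% and 7.75% of all tested probe sets. Their summed signal was 16574 to 18090 in normal and 9208 to 14126 in diabetic lung. Col3a1 gave the largest part of this sum (means 8739 in normal and 4809 in diabetic lung), while Pdgfra was the higher marker (2200 and 3337). Of 3 macrophage markers tested, 2 had a higher mean (summed signal 2075 to 2702 and 2508 to 3761), and of 2 erythroid markers 1 had a lower mean. Col1a1, Col3a1 and the macrophage marker Cd14 are on the study's list of changed genes, which was chosen on these samples. The marker counts therefore describe the listed genes only. The markers of striated and cardiac muscle and of adipocytes were all below the filter. Whether these cell types had a part in the differences of carriers was not tested, and in whole lung fewer cells of a type and less RNA per cell cannot be told apart.

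With the GAPDH ratio as a covariate, 9 of the 18 genes stayed at an unadjusted p under 0.05. The log2 difference became smaller in size for Slc39a4 (-0.22), Slc25a4 (-0.17), Slc4a4 (0.30), Slc39a11 (-0.21), Slc12a4 (-0.21) and Slc11a2 (-0.09), none of which stayed under 0.05. It became larger for Slc39a8 (1.61), Slc38a5 (-1.09), Slc3a1 (-0.76), Slc7a6 (0.73), Slc15a2 (0.59), Slc29a1 (-0.41), Slc39a7 (-0.39), Slc35b1 (-0.38) and Slc52a2 (0.53), all of which did. It also became larger for Slc28a2 (0.81), Slc16a3 (0.38) and Slc45a3 (-0.39), which did not stay under 0.05. In the same fit without diabetic animal 6, 2 of the 18 genes, Slc38a5 (-0.59) and Slc3a1 (-0.71), were under 0.05. Without that animal the ratio was at most 1.17 in diabetic and at least 1.23 in normal lung, so that ratio and group then cannot be told apart.

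Among the 21 metal ion carriers tested, at an unadjusted p under 0.05 a lower diabetic mean was found in 4 of 21, beside 8.68% of all tested probe sets, and a higher one in 1 of 21 (4.76%), beside 7.75%. Of the zinc importers, all 9 measured Slc39 genes were tested, and 3 of the 4 with the lower mean and the 1 with the higher mean were among them. Slc39a4, best known as the zinc uptake carrier of the intestine, had signals of 1605, 1513, 1707, 1862 and 1789 in the 5 normal lungs. In the 7 diabetic lungs its lowest, median and highest signals were 1130, 1326 and 1470. Every diabetic animal was below every normal animal. The means were 1695 ± 140 (SD, n = 5) and 1316 ± 132 (SD, n = 7), a log2 difference of -0.37 (SE 0.08, adjusted p = 0.0725 from limma), and leaving out any 1 animal gave -0.41 to -0.33. With the GAPDH ratio as a covariate it was -0.22 (adjusted p = 0.382 from limma).

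Slc39a8 carries zinc and manganese, and in lung it is known to be induced in inflammation. Its signal was 387.6, 308.0, 491.8, 438.9 and 343.2 in the normal lungs, and 415.7, 541.3 and 1463 were the lowest, median and highest of the diabetic lungs. The groups overlapped, since 3 diabetic animals lay within the range of the normal animals, and diabetic animals 6 (1463) and 3 (989.1) stood far above the other diabetic animals, which reached at most 644.6. The log2 difference was 0.71 (SE 0.27, adjusted p = 0.203 from limma), and without diabetic animal 6 it was 0.51 (adjusted p = 0.223 from limma).

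Slc39a7 releases zinc from the endoplasmic reticulum and Golgi. Its normal signals of 1107, 1169, 1136, 1166 and 1179 lay close together, and the diabetic signals ran from 832.6 over a median of 1014 to 1144. The highest diabetic signal reached into the normal range, and the other 6 diabetic animals were below all normal animals. For Slc39a7 the log2 difference was -0.21 (SE 0.08, adjusted p = 0.221 from limma). Slc39a11, a zinc carrier of internal membranes, had a mean signal of 389.0 ± 47.1 (SD, n = 5) in normal and 306.6 ± 34.2 (SD, n = 7) in diabetic lung (log2 difference -0.34, SE 0.10, adjusted p = 0.133 from limma). The other 5 Slc39 genes differed by -0.13 (Slc39a3) to 0.17 (Slc39a10) on the log2 scale.

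Of 8 measured zinc exporters of the Slc30 family 6 were tested, none at an unadjusted p under 0.05, and their log2 differences ran from -0.01 (Slc30a4) to 0.19 (Slc30a1). Slc30a1 had a signal of 162.1 ± 24.4 (SD, n = 5) in normal and 184.3 ± 21.4 (SD, n = 7) in diabetic lung, close to the filter signal.

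Slc11a2, the divalent metal carrier that brings iron into the cytosol, was the remaining metal carrier at this threshold. Its signals in normal lung were 348.2, 306.8, 360.5, 427.9 and 358.5, and in diabetic lung the lowest, median and highest were 279.5, 304.2 and 331.2. The groups overlapped in the lowest normal animal. The log2 difference was -0.22 (SE 0.09, adjusted p = 0.251 from limma), and a second probe set of the gene gave -0.33 (SE 0.11, adjusted p = 0.168 from limma). Ferroportin (Slc40a1), the iron exporter, differed by -0.02 (SE 0.10), the copper carrier Slc31a1 by 0.02 (SE 0.07) and its relative Slc31a2 by 0.18 (SE 0.13) on the log2 scale.

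**Figure D3:**
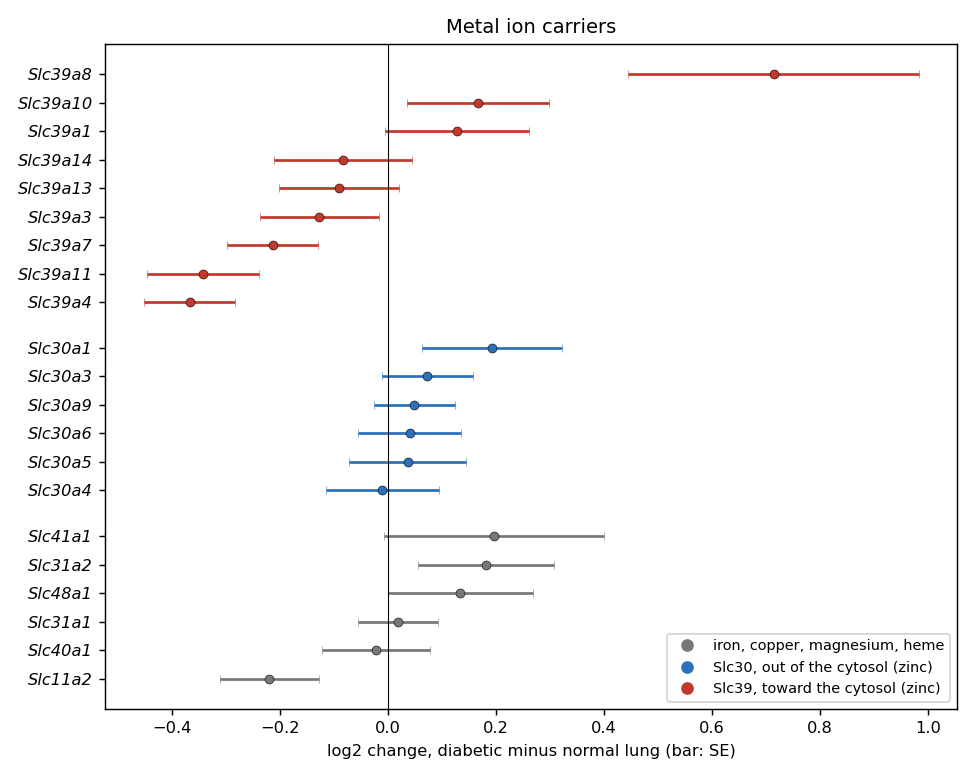
The log2 difference, diabetic (n = 7) minus normal (n = 5) lung, of the 21 tested metal ion carriers, with the standard error from limma as a bar and colours for Slc39 zinc importers, Slc30 zinc exporters and carriers of other metals. The Slc39 genes run from -0.37 (Slc39a4) to 0.71 (Slc39a8), while the Slc30 genes lie between -0.01 and 0.19.

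Amino acid and peptide carriers had 2 lower and 2 higher means at an unadjusted p under 0.05 among 16 tested (12.5% each, beside 8.68% and 7.75% of all tested probe sets). Slc38a5, which carries glutamine, asparagine, histidine and serine with sodium, had normal signals of 595.7, 630.5, 656.2, 674.5 and 674.6. The diabetic signals were 254.1 at the lowest, 463.9 at the median and 574.6 at the highest. All diabetic animals were below all normal animals, and the diabetic animals were spread more widely. For Slc38a5 the log2 difference was -0.56 (SE 0.16, adjusted p = 0.111 from limma), and without diabetic animal 6, the lowest, it was -0.43 (adjusted p = 0.0670 from limma).

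Slc3a1 is the heavy chain of the carrier that takes up cystine and basic amino acids. Its signals were 642.8, 582.8, 625.8, 599.6 and 737.6 in normal lung and 376.6, 447.2 and 601.8 (lowest, median and highest) in diabetic lung. The highest diabetic animal lay within the normal range. The log2 difference was -0.43 (SE 0.12, adjusted p = 0.116 from limma). The other heavy chain, Slc3a2, had a log2 difference of -0.01 (SE 0.08).

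Slc15a2, which takes up small peptides with protons and is known from the apical membrane of type II cells and airway epithelium, had a signal of 329.6 ± 35.8 (SD, n = 5) in normal and 413.2 ± 70.9 (SD, n = 7) in diabetic lung. For Slc15a2 the log2 difference was 0.32 (SE 0.12, adjusted p = 0.202 from limma). Slc7a6, a light chain of Slc3a2 that exchanges basic for neutral amino acids, had 314.3 ± 37.7 (SD, n = 5) and 399.1 ± 94.4 (SD, n = 7), a log2 difference of 0.32 (SE 0.14, adjusted p = 0.271 from limma). In both genes the groups overlapped, and diabetic animals 6 and 3 had the highest signals of all 12 animals. Among the amino acid carriers known as targets of the stress factor ATF4, 5 of 8 were tested and none passed an unadjusted p of 0.05, with a median log2 difference of -0.01.

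Of the 21 mitochondrial carriers tested, 13 had a log2 difference below 0 and the median was -0.08, and 1 gene was at an unadjusted p under 0.05. This was Slc25a4, with normal signals of 3059, 2776, 2513, 3128 and 3220. In diabetic lung the signals were 2249, 2397 and 2630 at the lowest, median and highest. Only the lowest normal animal fell into the diabetic range. The log2 difference was -0.29 (SE 0.08, adjusted p = 0.0926 from limma). Slc25a45, the gene of next smallest p in the class, had mean signals of 395.3 and 335.9, a log2 difference of -0.26 (SE 0.12, adjusted p = 0.319 from limma). On the log2 scale Slc25a5 differed by -0.10 (SE 0.07, adjusted p = 0.499 from limma) and Slc25a3 by -0.14 (SE 0.08, adjusted p = 0.367 from limma). Slc25a20, the carnitine carrier that brings fatty acids in for oxidation, differed by 0.06 (SE 0.11), and Slc25a1, the citrate carrier, by 0.01 (SE 0.11).

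In the nucleotide sugar and acetyl-CoA class Slc35b1, which exchanges ADP for ATP across the endoplasmic reticulum membrane, had a lower mean in diabetic lung. The normal signals were 1040, 851.0, 924.1, 1073 and 901.8, and the diabetic signals ran from 666.8 over a median of 792.0 to 838.3. The groups did not overlap. For Slc35b1 the log2 difference was -0.31 (SE 0.09, adjusted p = 0.106 from limma), and a second probe set of the gene gave -0.27 (SE 0.12, adjusted p = 0.266 from limma). The other 12 genes of the class differed by -0.20 to 0.18 and included Slc35a1, the CMP-sialic acid carrier, at 0.00 (SE 0.07).

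The riboflavin carrier Slc52a2 had the smallest p of the genes with a higher mean. Its signals in normal lung were 282.7, 249.7, 223.4, 219.6 and 198.9, and those in diabetic lung were 260.0, 349.7 and 390.8 at the lowest, median and highest. Only 1 normal animal, at 282.7, was above the lowest diabetic animal. The log2 difference was 0.51 (SE 0.12, adjusted p = 0.0747 from limma). The vitamin C carrier Slc23a2 and the biotin and pantothenate carrier Slc5a6 differed by 0.08 (SE 0.14) and -0.05 (SE 0.10).

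Of 9 carriers of protons, bicarbonate and chloride tested, 1 had a higher and 1 a lower mean at an unadjusted p under 0.05. Slc4a4, the sodium bicarbonate cotransporter, had normal signals of 338.4, 578.6, 504.7, 393.7 and 455.0, and diabetic signals of 513.5, 621.1 and 784.6 at the lowest, median and highest. The groups overlapped in 1 normal animal, and the log2 difference was 0.50 (SE 0.14, adjusted p = 0.106 from limma). A second probe set of Slc4a4 was below the filter, with means of 59.6 in normal and 61.5 in diabetic lung. Slc12a4, a potassium chloride cotransporter, had 273.3 ± 51.9 (SD, n = 5) and 221.2 ± 21.5 (SD, n = 7), a log2 difference of -0.29 (SE 0.13, adjusted p = 0.292 from limma), which passed an unadjusted p of 0.05 in only 3 of the 12 fits that left out 1 animal. The 3 other Slc12 genes tested, Slc12a2 included, differed by -0.12 to -0.05.

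Of 3 nucleoside carriers tested, 1 had a lower and 1 a higher mean at an unadjusted p under 0.05. Slc29a1 had normal signals of 3450, 3234, 3149, 3240 and 3239, and diabetic signals of 2319, 2717 and 3454 at the lowest, median and highest. A single diabetic animal was as high as the normal animals, and the other 6 were below all of them. For Slc29a1 the log2 difference was -0.23 (SE 0.08, adjusted p = 0.196 from limma). Slc28a2, which takes up purine nucleosides with sodium, had signals of 153.6 ± 55.0 (SD, n = 5) and 234.5 ± 79.3 (SD, n = 7), a log2 difference of 0.63 (SE 0.25, adjusted p = 0.232 from limma), with a normal mean under the filter signal. Slc29a3, a nucleoside carrier of lysosomes, differed by -0.15 (SE 0.12).

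In the remaining classes single genes were at an unadjusted p under 0.05. Slc16a3, the monocarboxylate carrier that exports lactate, had signals of 239.7 ± 44.9 (SD, n = 5) and 299.2 ± 42.2 (SD, n = 7), a log2 difference of 0.33 (SE 0.13, adjusted p = 0.241 from limma). Slc45a3, placed with the sugar carriers, had 230.9 ± 39.4 (SD, n = 5) and 183.5 ± 23.7 (SD, n = 7), a log2 difference of -0.32 (SE 0.13, adjusted p = 0.240 from limma). The groups overlapped for both genes. The sugar carriers Slc50a1 and Slc37a1, those of highest signal in their class, differed by 0.09 (SE 0.14) and -0.11 (SE 0.09), and Slc8b1, the mitochondrial sodium and calcium exchanger, differed by 0.13 (SE 0.10).

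Carriers of amines, creatine, taurine and related solutes had the highest class median, 0.16, with 6 of 8 tested genes above 0 and none at an unadjusted p under 0.05. Over all 21 genes of the class, without the filter, 11 were above 0 and the median was 0.00. Slc6a6 had signals of 1567 ± 249 (SD, n = 5) and 1798 ± 205 (SD, n = 7), a log2 difference of 0.20 (SE 0.11, adjusted p = 0.352 from limma). All 6 tested carriers of organic ions and bile acids had a log2 difference below 0 (-0.25 for Slc22a23 to -0.02 for Slc22a5), again with none at that threshold. Without the filter, 7 of the 17 genes of this class were above 0. Of the carriers of fatty acids and choline, the widest difference was 0.41 (SE 0.20, adjusted p = 0.335 from limma) for Slc27a2, a fatty acid carrier and acyl-CoA ligase. The choline carriers Slc44a1 and Slc44a2 differed by -0.09 (SE 0.09) and 0.03 (SE 0.06). Among 5 tested carriers known as targets of PPAR alpha or of fasting, the median was 0.03 and none passed an unadjusted p of 0.05.

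**Figure D4:**
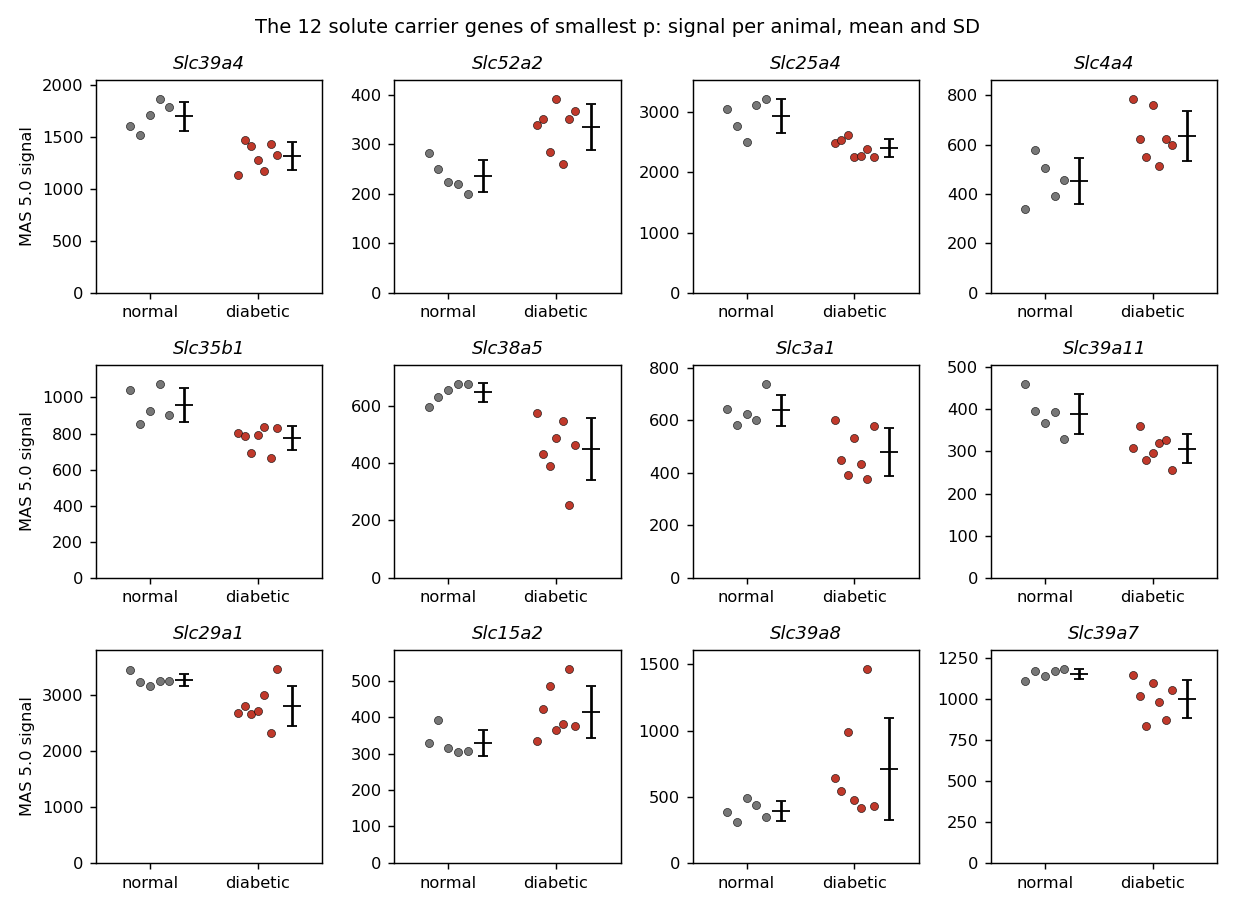
MAS 5.0 signal in each of 5 normal (grey) and 7 diabetic (red) lungs for the 12 solute carrier genes of smallest p, with the mean and SD beside the points and each axis starting at 0. The groups do not overlap for Slc39a4, Slc35b1 and Slc38a5, and in Slc39a8 a pair of diabetic animals, at 989.1 and 1463, stand above the rest.

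Diabetic animals 3 and 6 were often found together at one end of the diabetic group. They were the 2 highest or the 2 lowest of the 7 in 8 of the 18 genes at an unadjusted p under 0.05 (44.4%), in 30 of all 127 carriers tested (23.6%) and in 19.5% of all tested probe sets. The 8 genes were Slc39a8, Slc15a2 and Slc7a6, in which these animals were highest, and Slc38a5, Slc3a1, Slc35b1, Slc39a7 and Slc29a1, in which they were lowest. This pattern was noticed after the values were seen. Slc39a4, Slc52a2 and Slc4a4 did not have it.

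**Figure D5:**
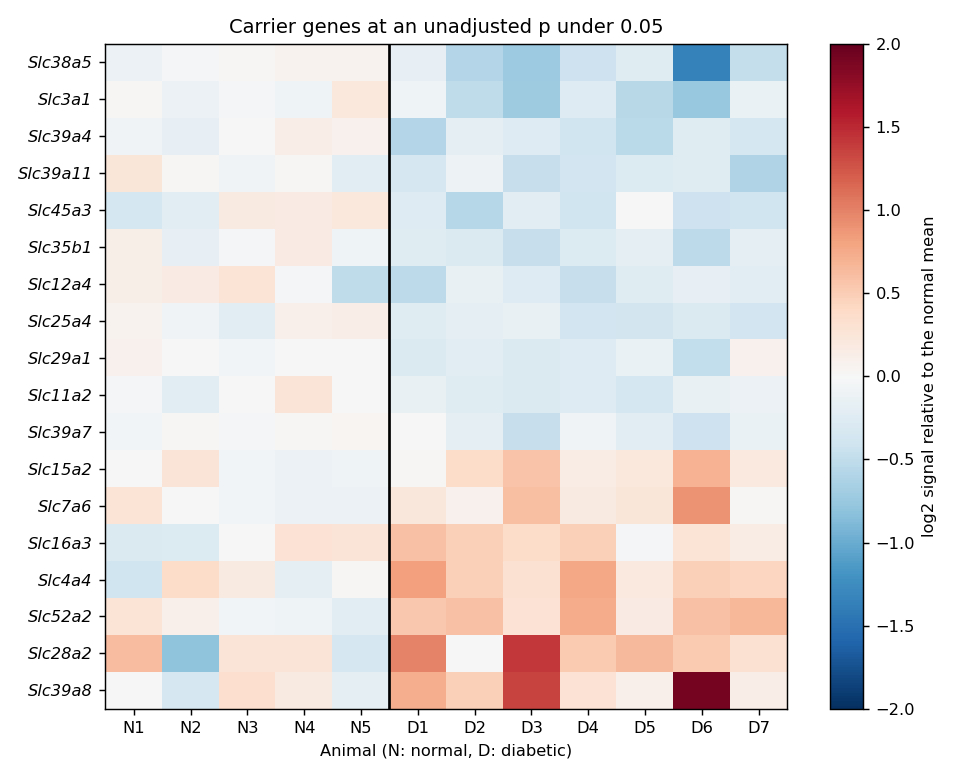
Log2 signal relative to the normal mean in each animal (columns N1 to N5 normal, D1 to D7 diabetic) for the 18 solute carrier genes at an unadjusted p under 0.05, sorted by the log2 difference between groups. Diabetic animals 3 and 6 have the deepest colours in Slc39a8, Slc38a5 and Slc3a1, whereas the colours of Slc39a4 and Slc25a4 are even over the diabetic animals.

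Of the 95 carrier genes below the filter, 74 were below its signal on all 12 arrays. Slc22a3, an organic cation carrier that takes up monoamines, was the 1 examined gene on the study's list of changed genes, a list chosen on these samples. That list also holds Slc7a10 and Slc28a3, which were among the genes left out here. The signals of Slc22a3 were 65.1, 83.2, 65.4, 84.7 and 127.1 in normal lung and 112.2, 134.0 and 207.9 (lowest, median and highest) in diabetic lung. A single normal animal lay in the diabetic range. In a fit without the filter its log2 difference was 0.76 (SE 0.21, adjusted p = 0.155 from limma). Slc22a6, an organic anion carrier of kidney, was named after its values were seen. Its signals were 22.9 to 85.3 in normal and 20.2 to 24.7 in diabetic lung, far under the filter signal, and the difference was -1.19 (SE 0.30, adjusted p = 0.123 from limma without the filter).

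Proteins that escort or regulate carriers were also examined, from a list of 20 of which 14 were tested. At an adjusted p of 0.05, 1 was higher and 1 was lower in diabetic lung. Bsg (basigin), which brings monocarboxylate carriers such as Slc16a3 to the plasma membrane, fell by 0.38 on the log2 scale, from a mean signal of 4505 to 3465 (adjusted p = 0.0321 from limma). Arrdc4, an arrestin relative that limits glucose uptake, rose by 0.94, from 356.9 to 672.0 (adjusted p = 0.0132 from limma). Its relative Txnip differed by 0.36 (adjusted p = 0.0903 from limma), and the sodium pump regulator Fxyd1 by -0.57 (adjusted p = 0.0793 from limma). In all, 6 of the 14 had a higher and 2 a lower mean at an unadjusted p under 0.05, beside 7.75% and 8.68% of all tested probe sets. The list was chosen with earlier results of these data known, and Fxyd1 is on the study's list of changed genes. The counts therefore describe the listed genes only and cannot show that such proteins differ more often than others.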

How the data were processed

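Whole lung RNA of 12 rats was measured on 12 Affymetrix RAE 230A arrays. The authors computed MAS 5.0 signals and scaled each array to a mean of 500 without the lowest and highest 2% of signals, and the deposited values are these intensities. They were taken as log2 (1 value at or below 0 was set to 0.1). The present and absent calls were not used here. Of 15923 probe sets, the 57 controls and the 40% of lowest mean log2 signal were left out. A linear model was fitted to the other 9520 with limma 3.58.1 under R 4.3.3 (lmFit, then eBayes with an intensity trend, two-sided), and Benjamini-Hochberg adjustment ran over all of them. The number of arrays limits the precision. Replicates were separate animals.

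Genes were named through GEO's platform annotation, in which 12783 probe sets name 1 gene, and substrate classes follow the family except for single members of Slc5, Slc13, Slc17 and Slc66. By rule the text names the 12 genes of smallest p in each direction, the 2 of highest signal in each class, Slc22a3, and members of the gene lists. Others are named to complete a family or class. Members and lists were chosen with earlier results of these data known. Plots were made with matplotlib 3.10.9 under python 3.11.15. Alternatives covered scaling, filter, pseudocount (64), variance model, array weights, the GAPDH ratio, probe sets, the threshold, the test, the replicate number and leaving out each animal. Counts with the 6 left-out carriers, and the GAPDH fit without diabetic animal 6, were added after seeing the data.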

Additional observations from a re-analysis of the deposited data

Results flagged for a closer look

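In the 46 genes that the naming rule gave, 92 groups of 5 normal or 7 diabetic animals were searched by Dixon's criterion for 1 animal far from the others, which chance flags in about 1 of 20 groups, and 6 such animals were found. Slc7a6 had a signal of 379.3 in normal animal 1, while the other normal animals had 288.7 to 314.0. Slc44a2 had 1925.5 in the same animal, below the 2197.9 to 2301.5 of the others. Slc22a18 had 665.8 in normal animal 5 and 506.5 to 543.0 in the others. Slc6a20a, an imino acid carrier, had 411.6 in diabetic animal 6 and 244.4 to 312.6 in the others. In diabetic animal 5, the sialic acid carrier Slc17a5 had 333.0 against 220.5 to 263.5 in the others, and the sodium, potassium and calcium exchanger Slc24a3 had 1027.5 against 357.9 to 608.8.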

How the results depend on the processing

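The count of carriers past the adjusted p was 0 under every alternative run except array weights (1, Slc52a2 at an adjusted p of 0.0411 from limma), a threshold of 0.10 (3), and the GAPDH ratio as a covariate (6, with 288 of all probe sets). Those 6 were Slc10a3, Slc35a4, Slc38a5, Slc39a8, Slc3a1 and Slc6a20a, and without diabetic animal 6 the GAPDH fit called 0 carriers and 0 of all probe sets. That covariate also gave 11 carriers with a higher mean at an unadjusted p under 0.05. Leaving out 1 animal gave 4 (without normal animal 2) to 9 higher and 8 (without normal animal 4) to 13 lower, 0 past the adjusted p each time, and a median log2 difference of -0.0405 (without normal animal 3) to -0.00427. The median was 0.00865 with arrays centred on their medians. Without the filter 10 of the 222 genes were higher and 15 lower. An unequal-variance test gave 5 and 10, and with the 6 left-out carriers the counts were 9 and 13. The shares of all tested probe sets given above belong to the main fit. Shares under the alternatives are not given here, so that these counts have no background beside them. Medians of small classes moved, for example without the filter to 0.000445 for neurotransmitters, amines and osmolytes (main 0.16), with the GAPDH covariate to 0.00344 for mitochondrial carriers (main -0.08), and with the mean over probe sets to 0.20 for nucleosides (main -0.15).

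Equal animal numbers of both groups did not pair the samples (the correlation of deviations was -0.12 to 0.04 over numbers 1 to 5, and 1 of 5 animals correlated best with its own number). With the replicate number as a block 7 were higher, 10 lower and 0 past the adjusted p, and in the same animals without the block 8, 13 and 0.

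The following genes changed the sign of a small log2 difference. Slc3a2 had 0.0132 with centring, 0.0356 with array weights, 0.00226 with and without the block, and -0.0490 to 0.0185 with 1 animal left out. Slc35a1 had -0.0114 after quantile normalization, -0.0146 with array weights and -0.0363 to 0.0259 with 1 animal left out. With the GAPDH covariate the values were -0.00167 for Slc35a1, -0.14 for Slc38a10, -0.63 for Slc16a12, -0.0418 for Slc44a2, 0.11 for Slc25a3, 0.0685 for Slc22a18, 0.11 for Slc12a2, -0.13 for Slc50a1 and 0.0519 for Slc5a6. Slc16a12 had -0.0939 as the mean of its probe sets. With 1 animal left out the ranges were -0.0400 to 0.22 for Slc16a12, -0.0170 to 0.0473 for Slc44a2, -0.0294 to 0.14 for Slc38a10 and -0.10 to 0.00422 for Slc12a2. The cause was not tested. In 14 genes with several tested probe sets, 9 had 1 direction and 5 (Slc16a12, Slc1a1, Slc38a1, Slc6a8 and Slc7a1) had opposed ones.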
